A study of Mus musculus with 43 samples.

Results

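The mesenchymal and epithelial-to-mesenchymal transition (EMT) factor genes described here are 10 genes named by symbol: Vim, Fn1, Sparc, Col8a1, Cdh2, Zeb1, Zeb2, Snai1, Snai2 and Twist1. All 10 were found in both deposited expression tables, which hold 13845 genes (4 processing conditions) and 13817 genes (4 cell inputs). Both tables give TPM (transcripts scaled to a fixed total in each library), a level per transcript length, so the genes can be ranked against each other within a library. The genes listed for the inputs do not reach that total in every library.

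All 43 libraries are labelled as PD798, a line derived from a pancreatic tumor of a genetically engineered mouse, whose alleles include a Rosa YFP/YFP reporter, p53 L/+ and Pdx1-cre. Pdx1-cre recombines in the pancreatic lineage and YFP marks the recombined cells. Cells were cultured for 48 to 72 h in medium with 10% FBS. In the processing experiment, 3 libraries each were made from cells banked before sorting (Pre-FACS), cells held in buffer on the bench (Mock), cells passed through the BD Influx sorter alone (FACS-only) and cells passed through magnetic and acoustic pre-enrichment and then the sorter (Pre-enriched). In the input experiment, cells spiked into normal mouse blood were pre-enriched and sorted as 11 single cells, 12 pools of 10 cells and 6 pools of 100 cells, and 2 libraries were made from RNA extracted from bulk cells of the line (bulk RNA). The labels give the blood spike for every library, the processing and bulk RNA libraries included. A single line was used, and the labels name no separate cultures, so p-values measure only the spread between these libraries.

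During EMT, epithelial cells loosen their junctions and take on the shape and motility of mesenchymal cells. The transcription factors Snai1, Snai2, Zeb1, Zeb2 and Twist1 bind E-box sequences, and Snai1, Snai2, Zeb1 and Zeb2 are known as repressors of the E-cadherin gene Cdh1. Vimentin (Vim), N-cadherin (Cdh2), fibronectin (Fn1), osteonectin (Sparc) and the collagen VIII chain Col8a1 are widely used as readouts of the mesenchymal state, and pancreatic tumor lines range from epithelial to mesenchymal.

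TPM keeps no sequencing depth, so no counting interval can be given. The listed genes held 54.2% to 99.99% of the TPM total in single cells and 93.5% to 99.98% in pools of 10 cells. In pools of 100 cells and bulk RNA they held at least 99.7%. The input libraries differed in how many genes reached 1 TPM, from 3919 to 11438 in single cells, 9149 to 11498 in pools of 10 cells, 10255 to 11549 in pools of 100 cells and 11889 to 11893 in bulk RNA. Single cells 6 and 9 and pools of 10 cells 5 and 12 stood apart from the rest of their inputs. Their log2(TPM + 1) profiles correlated with pools of 100 cells 1 to 3 at Pearson's r of 0.967 to 0.993 across genes, against 0.643 to 0.828 for the other 9 single cells and 0.882 to 0.955 for the other 10 pools. The 6 pools of 100 cells fell into the sets 1 to 3 and 4 to 6.

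The epithelial identity of the line was read from 15 epithelial genes, all of which were in both tables. Their summed level was 25222 to 28785 TPM in the processing libraries and 29444 to 29970 TPM in bulk RNA. The keratin Krt18 averaged 8982 TPM in the processing libraries and 8835 TPM in bulk RNA, and Cdh1 averaged 1009 and 934 TPM. Krt19 averaged 3872 and 6568 TPM, Epcam 35.0 and 827 TPM, and Cldn7 5.04 and 578 TPM. So not all epithelial genes stood at like levels in both experiments, although the sums were close.

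In the processing libraries Vim and Fn1 were the highest members, followed by Cdh2 and Twist1, which overlapped. Vim, which encodes the intermediate filament vimentin, lay between 960 and 1085 TPM in all 12 libraries (mean 1020.5 ± 41.9, SD, n = 12), about the level of Cdh1 (976 to 1057 TPM). Fn1, a secreted glycoprotein of the matrix, was next at 315 to 424 TPM (367 ± 34.6). Cdh2, the N-cadherin of cell-cell contacts, was at 55.4 to 68.4 TPM (61.4 ± 4.37). The matrix genes Sparc (9.20 to 13.8 TPM) and Col8a1 (8.41 to 11.5 TPM) overlapped each other.

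The transcription factors were led by Twist1, a basic helix-loop-helix factor, at 47.0 to 62.5 TPM (56.3 ± 4.63). Snai2, a zinc-finger factor also called Slug, was at 23.4 to 43.5 TPM (34.1 ± 5.30), below Twist1 without overlap. Zeb1, a zinc-finger homeobox factor, was at 9.46 to 15.3 TPM, and its relative Zeb2 at 3.41 to 5.83 TPM. Snai1, also called Snail, was lowest at 0 to 0.760 TPM and was listed at 0 in 1 Pre-enriched library. Thus 9 of 10 members passed the filter for testing of at least 1 TPM in at least 3 libraries, and Snai1 did not.

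**Figure D1:**
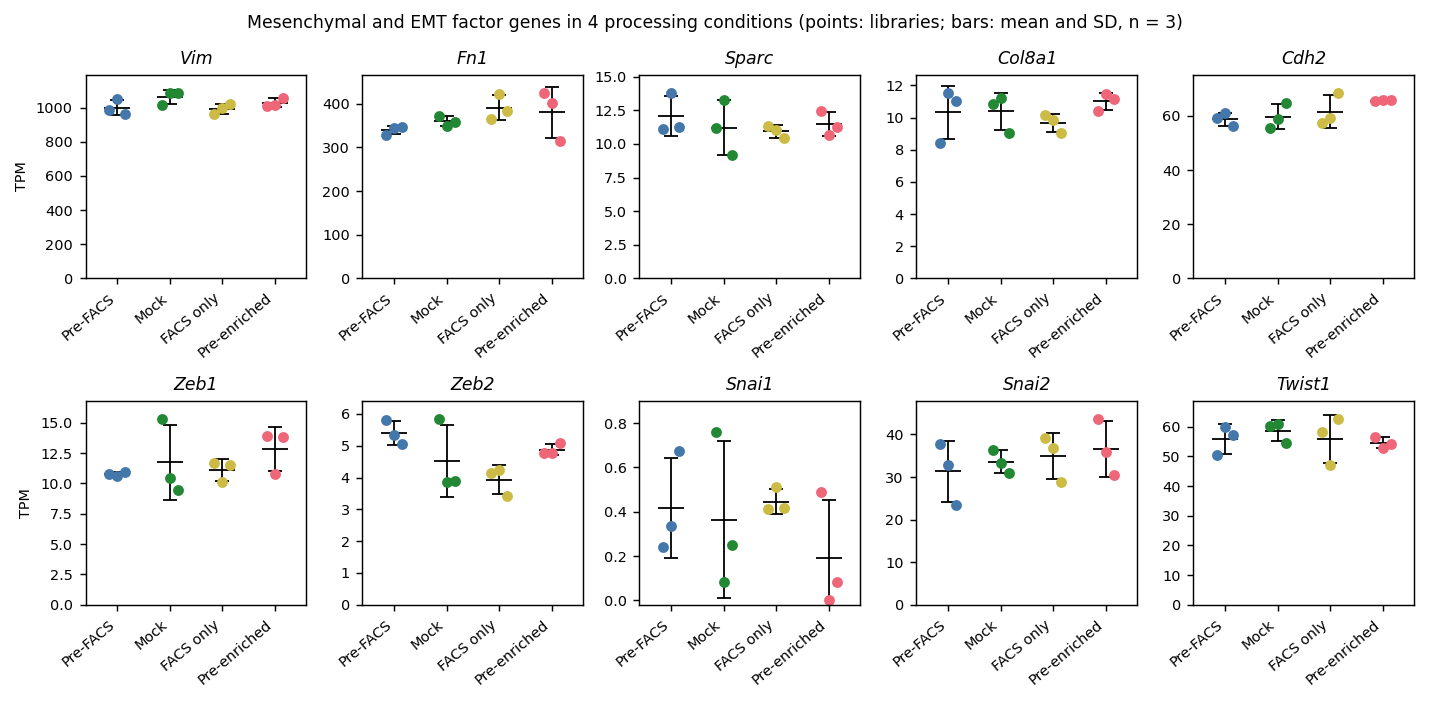
Level in TPM (linear axes from 0, a separate scale for each gene) of the 10 genes in the 4 processing conditions, with 1 point per library and bars for the mean and SD of 3 libraries. The conditions overlap for most pairs, with Vim between 960 and 1085 TPM over all 12 libraries, and Cdh2 in Pre-enriched (65.5 to 65.7 TPM) lies above Pre-FACS and Mock.

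The question of the processing experiment is whether handling before and during sorting shifts expression. Fn1 showed the lowest p among the members. It was at 329, 344 and 347 TPM in Pre-FACS, 372, 348 and 359 TPM in Mock, 365, 422 and 384 TPM in FACS-only, and 424, 400 and 315 TPM in Pre-enriched. The Pre-FACS libraries lay below those of Mock and FACS-only without overlap, and the Pre-enriched libraries spanned the range of all others. In limma's F test over the 4 conditions, on log2(TPM + 1) with Benjamini-Hochberg adjustment over 12159 genes, Fn1 had an adjusted p of 0.770.

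None of the 9 members tested was called at an adjusted p under 0.05 in that limma F test, and 0 of 9 had an unadjusted p under 0.05. Over all genes 13 were called, 0.107% of those tested. In the 6 pairs of conditions, 0 of 54 member differences were called, and 2 had an unadjusted p under 0.05. Genes called made up 0.123% for FACS-only minus Pre-FACS, 0.0493% for Pre-enriched minus Pre-FACS, 0.00822% for Mock minus Pre-FACS and 0% for the other pairs. These pairs share libraries.

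The 2 differences with an unadjusted p under 0.05 were both between FACS-only and Pre-FACS. Fn1 was 0.20 higher on the log2 scale in FACS-only (SE 0.0852, limma adjusted p = 0.658). Zeb2 was at 5.82, 5.33 and 5.06 TPM in Pre-FACS and at 4.16, 4.24 and 3.41 TPM in FACS-only, without overlap. Its log2 difference was -0.38 (SE 0.171, limma adjusted p = 0.688).

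Cdh2 was at 65.5, 65.7 and 65.7 TPM in Pre-enriched, above all libraries of Pre-FACS (59.2, 60.9 and 56.3 TPM) and of Mock (55.4, 58.9 and 64.6 TPM). In FACS-only it was at 57.2, 59.1 and 68.4 TPM, which overlapped every other condition. The limma difference of Pre-enriched minus Pre-FACS was 0.16 on the log2 scale (SE 0.0797, adjusted p = 0.586). Across members and pairs, 7 of 54 differences had no overlap between libraries, beside 12.2% of all gene-by-pair differences.

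Vim, the most abundant member, was at 987, 1048 and 961 TPM in Pre-FACS, 1015, 1084 and 1085 TPM in Mock, 960, 999 and 1020.1 TPM in FACS-only, and 1012, 1015 and 1059 TPM in Pre-enriched. All conditions overlapped Pre-FACS. Its difference of Pre-enriched minus Pre-FACS was 0.04 on the log2 scale, with a 95% interval of -0.06 to 0.15. Over all 54 member differences the 95% intervals ran from -0.74 to 0.62. In simulated libraries with the spread of these 12, the F test recovered 48% of genes changed by 0.5 and 88.5% of genes changed by 1 on the log2 scale, so smaller changes were not detectable for most genes.

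The other genes of the program were also not called by limma. In the F test 0 of 27 tested genes of a list of mesenchymal matrix and cytoskeleton genes were called, 0 of 17 of other EMT transcription factors, 0 of 19 of the TGF-beta pathway, 0 of 12 of factors that hold the epithelial state and 0 of 15 epithelial genes. Over all genes tested 0.107% were called, a share at which lists of this size seldom hold a call. These counts therefore do not set the lists apart from other genes.

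The same genes stood at other levels in the bulk RNA of the input experiment. The tables were normalized separately, so these levels are set side by side without a test, and the experiment, the table and a difference between the cells grown for each cannot be told apart. Vim was at 73.0 and 85.4 TPM in bulk RNA, against a mean of 1020.5 TPM in the processing libraries, a ratio of 12.9. Twist1 was at 3.05 and 2.52 TPM, against 56.3 TPM, and Zeb1 at 0.667 and 0.519 TPM, against 11.6 TPM. Those were the widest gaps among the members, with ratios of 20.2 and 19.6.

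Sparc (1.26 and 0.829 TPM), Zeb2 (0.650 and 0.556 TPM) and Col8a1 (1.89 and 1.66 TPM) were also lower in bulk RNA, at ratios of 10.9, 7.77 and 5.82. Fn1 was at 133 and 131 TPM, a ratio of 2.79. Snai2 (21.3 and 21.1 TPM) and Cdh2 (56.0 and 54.1 TPM) were closer to the processing libraries, at ratios of 1.61 and 1.12, and the bulk RNA values of Cdh2 were at the lower edge of its range there. Snai1 went the other way, at 1.05 and 1.38 TPM against a mean of 0.354 TPM.

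The junction genes Epcam and Cldn7 differed between the tables in the other direction. Epcam, an epithelial adhesion molecule, averaged 35.0 TPM in the processing libraries and 827 TPM in bulk RNA, and Cldn7, a tight-junction claudin, 5.04 and 578 TPM. Cdh1 and Krt18 were near equal, at ratios of 1.08 and 1.02 (processing over bulk RNA).

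On the log2(TPM + 1) scale, 7 of 10 members were more than 1 higher in the processing libraries, beside 11.4% of the 12889 genes in both tables. For a difference above 2 these were 5 of 10 members, beside 3.45% of genes. The median difference was 1.92 over the members and 0.05 over all shared genes. Markers of fibroblasts and stellate cells were low in both tables. Of 12 such markers 4 were present in the processing table, with a summed level of 1.76 to 3.21 TPM, and 1 of 12 (Acta2) was present among the inputs, at 0.215 to 0.319 TPM in bulk RNA. The other markers of that list were not among the genes of the respective table.

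**Figure D2:**
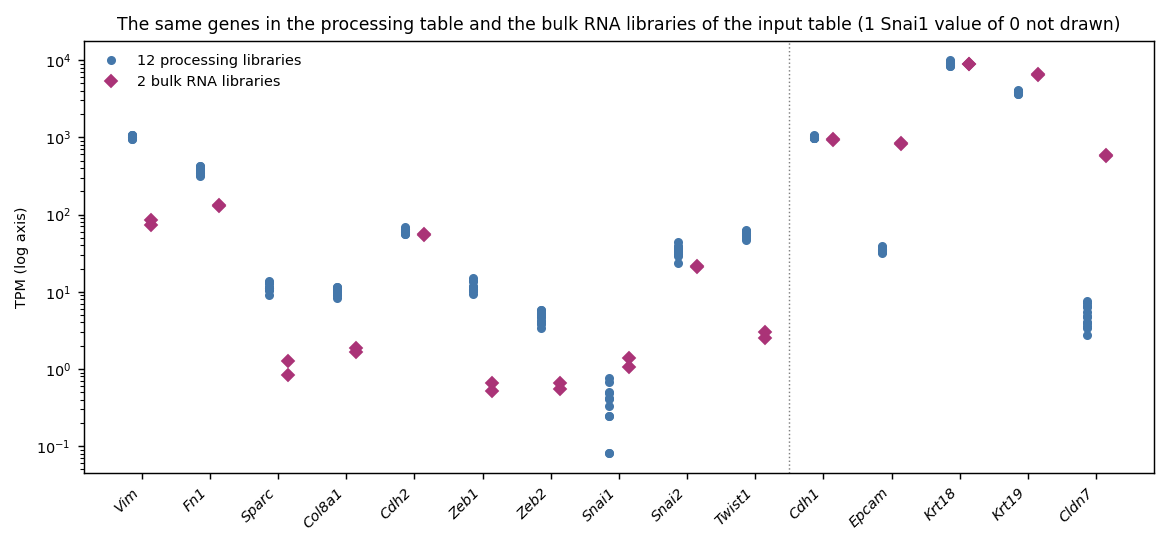
Level in TPM (log axis) of the 10 genes and of 5 epithelial genes in the 12 processing libraries (circles) and the 2 bulk RNA libraries of the input table (diamonds). Vim, Twist1 and Zeb1 lie more than 10 times higher in the processing libraries, Cdh2 at about the same level, and Epcam and Cldn7 far lower.

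Among the members, Vim had the widest spread over single cells on the log2(TPM + 1) scale, with an SD of 3.87, followed by Fn1 with 2.26. Vim was at 515, 438, 116 and 40.6 TPM in single cells 8, 3, 11 and 4, at 108 and 78.2 TPM in cells 9 and 6, at 0.143 TPM in cell 2, and listed at 0 in cells 1, 5, 7 and 10. So 6 of 11 single cells held Vim at 1 TPM or more, and 4 of 9 without the cells 6 and 9 that stood apart. Cells 8, 3, 11 and 9 exceeded both bulk RNA libraries, cell 6 lay between them, cell 4 was below both, and the other 5 cells were at or near 0. In the 12 pools of 10 cells Vim was between 3.46 and 85.4 TPM with a median of 38.4 TPM (35.4 TPM without pools 5 and 12), and in the 6 pools of 100 cells between 25.5 and 72.8 TPM with a median of 61.3 TPM.

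The 3 single cells with the highest Vim were low in Epcam. Cells 8, 3 and 11 had Epcam at 57.3, 0.138 and 0 TPM, and the other 8 cells had 503 to 2349 TPM. Vim was close in cell 11 (116 TPM) and cell 9 (108 TPM), yet cell 9 had Epcam at 802 TPM. Cldn7 was at 166, 22.3 and 16.0 TPM in cells 8, 3 and 11, and at 178 to 984 TPM in the others. Cdh1 did not follow this split. It was at 241, 72.1 and 102 TPM in cells 8, 3 and 11, inside the range of the others (16.7 to 276 TPM). Krt18 was detected in all 11 cells, at 9541, 3245 and 1721 TPM in cells 8, 3 and 11, and cells 3 and 11 were the lowest of all. This pattern was noticed, and the cut between cells 11 and 9 made, after the values were seen, so it is given as a description. How many of all genes separate cells 8, 3 and 11 from the others was not counted.

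Over the 11 single cells the Pearson correlation of Vim with Epcam on the log2(TPM + 1) scale was -0.61 (Spearman's rho -0.49), and without cells 6 and 9 it was -0.77 (rho -0.57, 9 cells). With Cldn7 it was -0.47 and -0.68, with Krt19 -0.33 and -0.66, with Krt18 0.16 and 0.0062, and with Cdh1 0.28 and 0.16, over 11 and 9 cells. With the number of genes at 1 TPM or more it was 0.05 over 11 cells and -0.51 over 9, and cells 8, 3 and 11 held 3919, 5631 and 4106 such genes. The part of detection in this pattern was not tested. Over the 12 pools of 10 cells the correlation of Vim with Epcam was -0.04, and without pools 5 and 12 it was -0.0021.

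Fn1 and Cdh2 reached 1 TPM in as many single cells as Vim, and the other members in fewer. Fn1 did so in 6 of 11 cells, at 18.7 to 27.4 TPM, and was below 1 TPM in the other 5. Cdh2 reached it in 6 cells, at 7.48 to 21.1 TPM. Without cells 6 and 9 both did so in 4 of 9 cells. Snai2 reached 1 TPM in 4 of 11 cells and in 2 of 9 without cells 6 and 9, led by cell 3 at 55.8 TPM, which also held 438 TPM of Vim.

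Twist1 reached 1 TPM only in cells 6 and 9, at 1.71 and 2.70 TPM, and was listed at 0 in the other 9. Col8a1, Snai1 and Zeb2 were above 0 in cells 6 and 9 only, in no case at 1 TPM. Sparc reached 1 TPM in cells 6 and 9 only (1.18 and 1.29 TPM). Zeb1 stayed below 1 TPM in all 11.

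Over all members and single cells, 26 of 110 values (23.6%) were at 1 TPM or more, beside 49.1% of the values of all genes. Without cells 6 and 9 these were 14 of 90 (15.6%), beside 41.7%. The counts rose to 63 of 120 in pools of 10 cells, 33 of 60 in pools of 100 cells and 15 of 20 in bulk RNA, beside 74.1%, 79.0% and 86.1% of all genes. Without pools 5 and 12 the pools of 10 cells had 48 of 100, beside 72.3% of all genes. The 2 members below the filter in this table were Zeb1 and Zeb2, which stayed under 1 TPM in all 31 libraries.

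**Figure D3:**
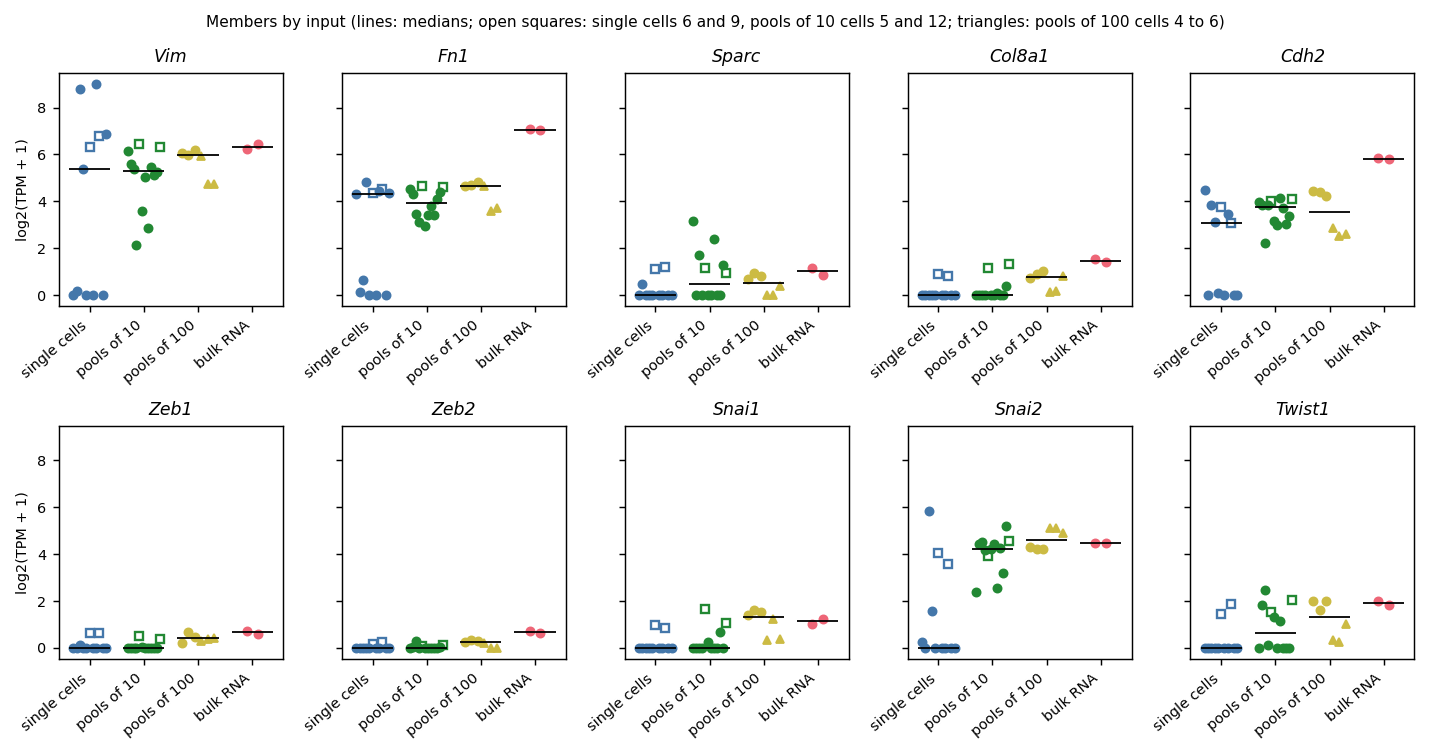
Level on the log2(TPM + 1) scale of the 10 genes by input, with 1 point per library and a line at the median. Vim in single cells ranges from 0 to 515 TPM, and the libraries that stand apart (open squares) lie near pools of 100 cells 1 to 3 (yellow circles).

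Fn1 and Cdh2 were lower in the sorted pools than in bulk RNA. Fn1 was at 6.67 to 24.3 TPM (median 14.3) in pools of 10 cells and at 24.2, 24.6, 27.0, 24.0, 10.8 and 11.9 TPM in the 6 pools of 100 cells (median 24.1), all far below 133 and 131 TPM in bulk RNA. The limma difference was -3.16 on the log2 scale for pools of 10 cells (SE 0.459, adjusted p = 0.000223) and -2.71 for pools of 100 cells (SE 0.399, adjusted p = 0.00509). Without pools of 10 cells 5 and 12 the first was -3.30 (limma adjusted p = 9.12e-05).

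Cdh2 was at 3.72 to 16.4 TPM (median 12.7) in pools of 10 cells and at 4.71 to 20.6 TPM (median 12.0) in pools of 100 cells, below both bulk RNA libraries without overlap. Its limma differences were -2.28 (SE 0.468, adjusted p = 0.0017) and -2.30 (SE 0.627, adjusted p = 0.0276). Col8a1 was at 0 to 1.47 TPM in pools of 10 cells, listed at 0 in 8 of 12, and at 0.0854 to 1.02 TPM in pools of 100 cells. Its limma differences were -1.23 (SE 0.37, adjusted p = 0.0147) and -0.85 (SE 0.282, adjusted p = 0.0497). Without pools of 10 cells 5 and 12, limma gave -2.38 for Cdh2 (adjusted p = 0.00122) and -1.43 for Col8a1 (adjusted p = 0.000136).

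These 3 were the members called of 8 tested in each comparison by limma at an adjusted p under 0.05, and all 3 were lower in the pools. Over all 12325 genes tested, 41% were called for pools of 10 cells (33.2% lower and 7.79% higher) and 31.9% for pools of 100 cells (25.5% lower and 6.39% higher). With quantile normalization the genes called split into 1770 lower and 2177 higher for pools of 10 cells and 1830 lower and 2079 higher for pools of 100 cells, against 4090 and 960, and 3149 and 788, without it. Fn1 and Cdh2 stayed lower and called under that scaling. Col8a1 was not (limma adjusted p = 0.964 and 0.583). The median difference was -1.14 over the 8 members and -0.86 over all genes for pools of 10 cells, and -0.70 and -0.79 for pools of 100 cells. Both comparisons share the 2 bulk RNA libraries. Leaving out either bulk RNA library ended the Col8a1 call in pools of 10 cells (adjusted p = 0.137 and 0.105) and all 3 calls in pools of 100 cells, where the lowest limma adjusted p of a member was 0.101 and 0.088. With all 31 libraries in 1 limma fit the differences of these 3 members were as before, and Col8a1 stayed called for pools of 10 cells (adjusted p = 0.0151). Fn1 (adjusted p = 0.0572) and Cdh2 (0.139) were then not called for pools of 10 cells, nor were Fn1 (0.193), Cdh2 (0.226) and Col8a1 (0.177) for pools of 100 cells.

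The other 5 members were not called against bulk RNA. Without pools of 10 cells 5 and 12 limma also called Snai1 (-1.05, SE 0.229, adjusted p = 0.00245), beside 45.8% of all genes called. Vim had a limma difference of -1.38 for pools of 10 cells (95% interval -3.19 to 0.43, adjusted p = 0.207) and of -0.71 for pools of 100 cells (95% interval -1.77 to 0.35, adjusted p = 0.235). Snai2 was at 4.22 to 35.9 TPM (median 17.9 without pools 5 and 12) in pools of 10 cells, a range that holds both bulk RNA values. Twist1 was listed at 0 in 5 of 12 pools of 10 cells and reached 4.53 TPM in pool 3, above both bulk RNA libraries. Sparc was listed at 0 in 6 of 12 pools of 10 cells and reached 7.87 TPM in pool 1.

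The differences of pools from bulk RNA went with the summed exon length of genes. This length merges the exons of all annotated transcripts of a gene and can exceed that of any 1 transcript. Across the 11854 tested genes with an annotated exon length (GENCODE vM21, mm10), the Spearman correlation of length with the difference was -0.49 for both pool sizes. The median difference for pools of 10 cells fell from 0.15 in the shortest of 5 equal groups of genes to -1.60 in the longest. Fn1 (11685 bases on chromosome 1), Cdh2 (8066 bases, chromosome 18) and Col8a1 (7833 bases, chromosome 16) all belonged to the longest group.

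Within that group, 5.06% of genes had a lower difference than Fn1 for pools of 10 cells, 26.4% lower than Cdh2 and 63.2% lower than Col8a1. With the length trend of each library removed, an alternative added after seeing the data, Fn1 stayed called by limma (-1.55, adjusted p = 0.0138, and -1.27, adjusted p = 0.0223). Cdh2 was then at -0.79 and -0.94 (adjusted p = 0.219 and 0.0796) and Col8a1 at 0.24 and 0.50 (adjusted p = 0.607 and 0.200), so their calls ended and the sign of Col8a1 turned. The short genes Twist1 (1628 bases, chromosome 12), Snai1 (1621 bases, chromosome 2) and Snai2 (2021 bases, chromosome 16) were not called.

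**Figure D4:**
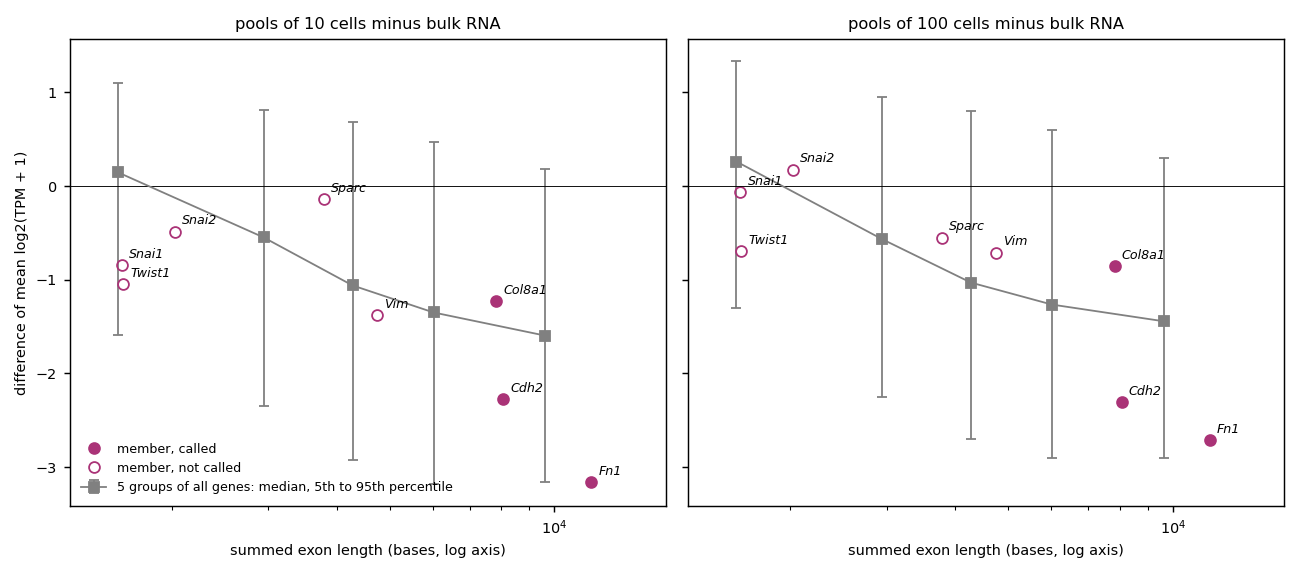
Difference of mean log2(TPM + 1) between pools and bulk RNA against summed exon length in bases (log axis), for the 8 tested members (circles, filled where called) and for 5 groups of all genes by length (squares at the median, bars from the 5th to the 95th percentile). The medians fall with length, and Fn1 lies near the 5th percentile of the longest group in both panels.

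The pools of 100 cells differed between their sets 1 to 3 and 4 to 6 for most members. Vim was at 65.6, 61.8 and 72.8 TPM in pools 1 to 3 and at 60.8, 25.5 and 25.9 TPM in pools 4 to 6. Cdh2 was at 20.6, 19.8 and 17.8 TPM and at 6.29, 4.71 and 5.07 TPM. Snai2 went the other way, at 18.7, 17.5 and 17.8 TPM in pools 1 to 3 and at 33.4, 34.1 and 29.3 TPM in pools 4 to 6.

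In all, 7 of 10 members were higher in pools 1 to 3 without overlap, 1 of 10 (Snai2) was higher in pools 4 to 6, and Col8a1 and Zeb1 overlapped. The epithelial genes Krt19 (6995 to 7712 TPM in pools 1 to 3 and 812 to 1182 TPM in pools 4 to 6), Cdh1 (221 to 263 and 51.9 to 62.4 TPM), Krt18, Epcam and Cldn7 were all higher in pools 1 to 3 without overlap. Of all 12325 genes tested 58.8% lay higher in pools 1 to 3 and 15.9% higher in pools 4 to 6 without overlap, 74.7% in all, beside 8 of 10 members. Against bulk RNA, pools 1 to 3 alone gave a Vim difference of -0.24 (limma adjusted p = 0.0473) and pools 4 to 6 alone one of -1.18 (adjusted p = 0.024). Snai2 was at -0.23 (adjusted p = 0.0582) and 0.58 (adjusted p = 0.00778) in these limma fits, in which 70.4% and 78.8% of all genes were called. The sets were chosen with these data known, so the spread within a set is small by choice and these adjusted p are only descriptive. With all 6 pools limma gave an adjusted p of 0.235 for Vim and 0.684 for Snai2.

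No member was called between pools of 10 and of 100 cells. By limma 0 of 8 passed, beside 0.00811% of all genes (1 gene), and 1 member, Snai1, had an unadjusted p under 0.05. Snai1 was listed at 0 in 8 of 12 pools of 10 cells and was at 0.275 to 2.05 TPM in pools of 100 cells, a difference of -0.78 (SE 0.278, limma adjusted p = 0.675). Without pools of 10 cells 5 and 12 it was -0.99 (limma adjusted p = 0.0549), and 0.462% of all genes were called. For Vim the 95% interval of the difference ran from -1.79 to 0.45.

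Between single cells and pools of 10 cells, limma called 1 of 8 members, Snai2, beside 16.9% of all genes, all of them lower in single cells. Snai2 was listed at 0 in 6 of 11 single cells, had a median of 0 TPM and reached 55.8 TPM, and was at 4.22 to 35.9 TPM in every pool of 10 cells. Its limma difference was -2.60 (SE 0.662, adjusted p = 0.0131). Without single cells 6 and 9 and pools 5 and 12 it was -3.09 (limma adjusted p = 0.00403), beside 25.7% of all genes called. With quantile normalization, under which 528 of the genes called were higher and 206 lower in single cells, it was -1.18 and not called (limma adjusted p = 0.144), and with the length trend removed -1.66 (adjusted p = 0.0821).

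Cdh2 (-1.55, adjusted p = 0.0689) and Fn1 (-1.39, adjusted p = 0.126) did not pass in the same limma fit. The median difference was -0.82 over the members and -0.91 over all genes.

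Lists of other genes of the program were counted in the limma fits of pools against bulk RNA. The length trend described above was not removed for these counts. With it removed, 862 of all genes were called lower and 1734 higher for pools of 10 cells. Of 24 tested genes of the mesenchymal matrix and cytoskeleton list, 14 fell and 0 rose for pools of 10 cells, beside 33.2% of all genes lower, and 13 fell and 1 rose for pools of 100 cells, beside 25.5% lower. The basement-membrane collagens Col4a1 and Col4a2 were among the genes with the largest differences, at -4.01 (SE 0.478, limma adjusted p = 6.7e-05) and -3.66 (SE 0.5, adjusted p = 0.00015) for pools of 10 cells. Of 17 other EMT transcription factors, 7 fell and 1 rose in pools of 10 cells, not far from the 33.2% of all genes lower. The ETS factor Etv5 was at -2.29 (SE 0.495, limma adjusted p = 0.00222).

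The TGF-beta pathway, a known inducer of EMT, had 14 of 21 tested genes lower and 0 higher in pools of 10 cells, beside 33.2% of all genes lower. Its ubiquitin ligase Smurf1 was at -3.20 (SE 0.679, limma adjusted p = 0.00204). On the epithelial side, of 16 factors that hold the epithelial state 7 fell and 0 rose, with the splicing regulator Esrp2 at -3.75 (SE 0.731, limma adjusted p = 0.00123), and of 15 epithelial genes 5 fell and 1 rose, with the tight-junction scaffold Tjp1 at -3.20 (SE 0.288, adjusted p = 8.13e-06). Neither the 7 of 16 nor the 5 of 15 stands far from the 33.2% of all genes lower in pools of 10 cells. The median difference of the epithelial genes was -0.61, against -0.86 for all genes. Without pools 5 and 12, when 37.6% of all genes were lower, the genes that fell were 16 of 24, 9 of 17, 15 of 21, 10 of 16 and 6 of 15 of these 5 lists in the order given.

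In single cells against pools of 10 cells, limma called 3 of 24 mesenchymal matrix and cytoskeleton genes, all lower, beside 16.9% of all genes. Without single cells 6 and 9 and pools 5 and 12 these were 5 of 24, beside 25.7%. The 3 were the protease inhibitor Timp1 (-4.07, SE 0.711, adjusted p = 0.00142), the secreted phosphoprotein Spp1 (-3.78, SE 1.08, adjusted p = 0.0217) and the hyaluronan receptor Cd44 (-2.45, SE 0.764, adjusted p = 0.0313). Both Timp1 and Spp1 were at 0 TPM in the median single cell.

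Some blood cell markers reached the level of the members in the input libraries. Of 16 leukocyte markers 6 were in the input table, with a summed level of 0 to 116 TPM in single cells, 0 to 99.5 TPM in pools of 10 cells, 36.2 to 149.8 TPM in pools of 100 cells and 47.1 to 62.5 TPM in bulk RNA. The 10 members summed to 0 to 546 TPM, 41.6 to 147 TPM, 75.0 to 143 TPM and 292 to 299 TPM in the same inputs. Without S100a8 and S100a9 the leukocyte markers summed to at most 4.86 TPM in any input library. The 2 platelet markers summed to at most 8.14 TPM. The 1 erythroid marker, Alas2, ranged from 0 to 278 TPM in single cells, 0 to 83.3 TPM in pools of 10 cells, 1.03 to 11.6 TPM in pools of 100 cells and 0 to 0.415 TPM in bulk RNA. No endothelial marker was in the table. Their part in the member values was not tested.

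Across the 18 pools the genes most like each member were ranked by Pearson's r on the log2(TPM + 1) scale among 10577 genes. For Vim these were Trf, the iron carrier transferrin (r = 0.96), Rbp4, a retinol carrier (r = 0.91), and the keratin Krt20 (r = 0.86). In the 12 pools of 10 cells alone the same 3 genes had r of 0.98, 0.93 and 0.86, and in the 16 pools without pools of 10 cells 5 and 12 they had 0.95, 0.91 and 0.84. For Cdh2 they were Palld, Tor4a and Fuz (r = 0.93, 0.92 and 0.92), and for Twist1 Dennd6b, Nr2c2 and Spred2 (0.95, 0.88 and 0.87).

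For Fn1 they were Fam193b, Khnyn and Dpp9 (0.85, 0.85 and 0.84) and for Snai2 Fnip1, Zfp280c and Cmc4 (0.83 in all 3). The pools share libraries of unequal detection and the sets described above, and these are the highest values among many genes. Among the members themselves, Vim and Fn1 had r of 0.76 over the 18 pools, Vim and Cdh2 0.18, and Cdh2 and Snai2 -0.43, against 0.72, 0.08 and -0.45 over the 16 pools. Cdh2 had r of 0.76 with Cdh1, its epithelial counterpart, over the 18 pools, 0.73 over the 16 pools, 0.48 over the 12 pools of 10 cells and 0.27 over 10 of them without pools 5 and 12.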

How the data were processed

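Libraries were made by the authors with SMART-Seq v4 from cell lysate or bulk RNA, sequenced as paired-end reads, aligned to mm10 with STAR and counted per gene with featureCounts. Per the study's methods, counts were upper-quartile normalized with EDASeq and converted to TPM by effective gene length. The deposited values are TPM, in 1 table of 12 processing libraries and 1 of 31 input libraries. Normalization and length correction set the scale of each library, TPM hold no depth, and amplification from few cells leaves genes at 0. All columns of values were used (0 left unused). A count test does not suit TPM and was not run.

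Groups were taken from the sample titles. Values were transformed to log2(TPM + 1), and genes reaching 1 TPM in 3 or more libraries of a table were tested with limma 3.58.1 (mean-variance trend, R 4.3.3), with Benjamini-Hochberg adjustment over all genes tested and a threshold of 0.05. The 4 processing conditions entered 1 fit, and each pair of inputs a fit of its own. Summaries used Python 3.11.15, pandas 2.3.3 and numpy 2.4.6. The fits were tested on simulated data. No values were shared between libraries of a group beyond 0.00825% of genes. That check compared libraries within a group only, and it cannot show that they came from separate material. Following the labels, every library was counted as a separate sample, including the single cells and pools that stood apart from their inputs.

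All 10 members are named. From longer gene lists, up to 3 called genes of the largest difference per comparison could be named, as could Cdh1, Epcam, Krt18, Krt19 and Cldn7 as label checks and the 3 genes most correlated with each member over 18 pools. The members, lists, alternatives and the sets of 100-cell pools were chosen with earlier results of these data known. Alternatives were another pseudocount (0.1), filter (none, or a mean of 5 TPM) and scaling, no trend, a replicate block, other sets of libraries and, added after seeing the data, removal of a length trend and of libraries that stood apart. Exon lengths came from GENCODE vM21. A further allele of the line is not reported here.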

Additional observations from a re-analysis of the deposited data

How the results depend on the processing

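No member was called among the processing conditions, or in any of their pairs, under any alternative or with any of the 12 libraries left out (0 to 0 calls). The 3 calls for pools of 10 cells against bulk RNA became 5 with no filter, 1 with all 31 libraries in 1 fit, 1 with the length trend removed and 2 to 2 without either bulk RNA library. The 3 calls for pools of 100 cells became 0 with all 31 libraries in 1 fit, 1 with the length trend removed, 7 with pools 4 to 6 only, and 0 to 0 without either bulk RNA library. The 1 call between single cells and pools of 10 cells became 2 with a pseudocount of 0.1, quantile normalization, all 31 libraries in 1 fit, the length trend removed or single cells 1 to 4 left out. Snai2 itself was not called there under quantile normalization (limma adjusted p = 0.144) or with the length trend removed (adjusted p = 0.0821). The detected member values became 41 in single cells and 56 in pools of 100 cells when any value above 0 counted, and 14 in single cells without cells 6 and 9. Signs turned for Col8a1 (0.24 and 0.50) and for Vim in pools of 100 cells (0.40) with the length trend removed, for Fn1 in single cells (0.066) under quantile normalization, and for Snai2 in pools of 100 cells against bulk RNA with pools 1 to 3 only (-0.23). Quantile normalization moved the median difference of all genes from -0.86 to 0.14 for pools of 10 cells, from -0.79 to 0.04 for pools of 100 cells and from -0.91 to 0.07 for single cells. The genes called ranged from 0 (replicate block, with 4947 at an unadjusted p under 0.05) to 5640 for pools of 10 cells against bulk RNA, and from 0 (without bulk RNA library 2, with 3221) to 9715 for pools of 100 cells. For pools of 10 against 100 cells they rose from 1 to 1946 with pools 4 to 6 only, and for single cells they ranged from 636 to 3642. The causes of the changes that do not follow from the libraries used were not tested.

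The fits above did not pair the processing libraries by replicate number, and the labels do not say whether the numbers pair them. Deviations of libraries with the same number correlated at -0.04 to 0.23 (median 0.07), and those with different numbers at -0.16 to 0.08 (median -0.03). Of the 12 libraries, 9 correlated best with their own number, a hint of pairing from the data and not from the design. With the replicate number as a block, 61 rather than 13 genes were called over the 4 conditions, and 0 members. In the inputs the block gave 0 member calls for pools of 10 cells against bulk RNA and -0.22 for Snai2 in pools of 100 cells. There only the pools that share a number with the 2 bulk RNA libraries enter the difference. These block results therefore cannot speak for the other pools. In simulated data 49.5% and 43% of genes changed by 2 on the log2 scale were recovered for pools of 10 and 100 cells against the 2 bulk RNA libraries, and 44% for single cells against pools of 10 cells.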

Other observations

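Snai2 differed between the libraries of a condition in the same order of replicate number in all 4 processing conditions. The libraries numbered 1 were at 37.7, 36.4, 39.1 and 43.5 TPM in Pre-FACS, Mock, FACS-only and Pre-enriched, those numbered 2 at 32.8, 33.3, 36.9 and 35.8 TPM, and those numbered 3 were lowest in each condition, from 23.4 TPM in Pre-FACS upward. Such an order was not particular to Snai2. Krt18 rose from number 1 to number 3 in each of the 4 conditions, as from 8377 over 8604 to 9100 TPM in Pre-FACS. How many of all genes keep 1 order was not counted. The order of Snai2 was noticed after the values were seen and was not tested, and the labels do not say what the numbers share.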
